A study of Mus musculus with 12 samples.

Results

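Galectins are lectins that bind β-galactosides on glycoproteins and glycolipids, and 6 of them were followed here across gut tissue and Cftr genotype together with the galectin ligand Lgals3bp. The genes were Lgals1, Lgals2, Lgals3, Lgals3bp, Lgals4, Lgals8 and Lgals9, chosen by the gene symbol that the array platform's annotation gives each probe, which took in 12 of 45281 probes. No further probe matched through an older name. A probe annotated to both Lgals8 and Capn2 was left out, and it read 7.64 to 7.73, below the dim-probe limit on every array. All 12 probes were above the dim-probe limit on all 12 arrays, and the 7 genes stand among 12080 named genes and 15817 features that passed the filter on dim probes. The family was picked with earlier results of these data in view, among them the higher Lgals3 in mutant duodenum.

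The arrays were Illumina mouse BeadChips, on which beads carrying gene probes are read as brightness, and the deposited values are quantile-normalized log2 signals. The 4 groups of 3 arrays were mid-duodenum of Apc+/+ Cftrfl/fl-Villin-Cre mice, mid-duodenum of Apc+/+ Cftr+/+-Villin-Cre mice, distal colon of Apc+/+ Cftrfl/fl-Villin-Cre mice and distal colon of Apc+/+ Cftr+/+-Villin-Cre mice, below called mutant and wild type. Every mouse was C57BL/6, 3 months old and intact for Apc, and the genotype labels put Villin-Cre in both genotypes, although another label names it for the mutants only. The Villin promoter drives Cre in gut epithelium, so floxed Cftr is removed from epithelial and not from stromal cells. Colon RNA came from separated epithelium according to the design text (one protocol label speaks of whole colon), and duodenal RNA from the gut wall with its villi sheared off, stroma included. In such bulk RNA, fewer cells of a type and less RNA per cell cannot be told apart. The design text has both tissues taken from every mouse, but arrays with the same number are not said to come from the same one, so the p-values reflect only how far these arrays differ, part of which may be technical.

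By structure, mouse galectins fall into prototype members with a single carbohydrate-binding domain (Lgals1, Lgals2), the chimeric Lgals3, whose lectin domain carries a long N-terminal tail, and tandem-repeat members with a pair of different domains in one chain (Lgals4, Lgals8, Lgals9). They leave cells without a signal peptide, cross-link surface glycans and, inside cells, recognise damaged vesicles. In gut epithelium, galectin-3 and galectin-4 are abundant and take part in apical sorting of glycoproteins. Lgals3bp is no lectin but a secreted, heavily glycosylated scavenger-receptor-type protein that galectin-3 binds.

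Promoters are shown for the 3 galectins whose levels differed most between tissues or differed between genotypes, Lgals2, Lgals9 and Lgals3. Each run holds the 250 bases before the RefSeq start in mouse build GRCm38.p6, written 5′ to 3′ on the gene's strand, with capitals marking matches to 6 motifs chosen after the sequences had been read. The windows are chr15:78855530-78855779 (minus strand) for Lgals2, chr14:47373610-47373859 (plus strand) for Lgals3 and chr11:78984925-78985174 (minus strand) for Lgals9.
Lgals2: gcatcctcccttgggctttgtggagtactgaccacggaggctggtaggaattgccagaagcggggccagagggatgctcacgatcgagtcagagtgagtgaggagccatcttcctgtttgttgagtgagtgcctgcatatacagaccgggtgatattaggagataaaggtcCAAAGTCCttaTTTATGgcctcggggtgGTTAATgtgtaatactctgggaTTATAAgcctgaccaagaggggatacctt
Lgals3: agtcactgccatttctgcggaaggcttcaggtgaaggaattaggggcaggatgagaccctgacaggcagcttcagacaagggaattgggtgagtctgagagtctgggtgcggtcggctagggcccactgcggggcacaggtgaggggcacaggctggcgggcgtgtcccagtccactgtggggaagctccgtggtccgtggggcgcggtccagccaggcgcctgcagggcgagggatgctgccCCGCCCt
Lgals9: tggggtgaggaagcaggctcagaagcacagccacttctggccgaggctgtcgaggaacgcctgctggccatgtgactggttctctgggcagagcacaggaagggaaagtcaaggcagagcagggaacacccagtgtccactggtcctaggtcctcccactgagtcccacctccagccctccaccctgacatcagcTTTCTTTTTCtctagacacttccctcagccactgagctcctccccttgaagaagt
The motifs searched on both strands were the HNF4 element CAAAGTCC, the HNF1 half-site GTTAAT and the CDX element TTTATG. Also searched were the interferon-stimulated response element (GAAA, any 2 bases, GAAA), the GC box GGGCGG and the TATA element TATAA. Of 32851 promoter windows of this length, 1.2% held the HNF4 element, 6.43% the HNF1 half-site and 10.8% the CDX element. The interferon element was in 2.98% of them, the GC box in 32.7% and the TATA element in 22.8%. The Lgals2 window held the HNF4 and CDX elements at 79 to 72 and 68 to 63 bases before the start. It held the HNF1 half-site at 51 to 46, and TATAA at 28 to 24, where the reverse reading of TATAA overlaps it. HNF4, HNF1 and CDX proteins are transcription factors of gut epithelium. The Lgals3 window held a GC box on the opposite strand at 7 to 2 bases before the start and no TATA element. It had 66% G and C and 13 CpG dinucleotides, against a median of 52.4% and 6 over all windows. Of all windows, 31.5% held at least 13 CpG. The Lgals9 window held the interferon element on the opposite strand at 55 to 46 bases before the start, with 58.4% G and C and 3 CpG. A match in these letters is a description and not a binding site. Windows were also found for Lgals3bp, Lgals4 and Lgals8. Of these only Lgals3bp held a match, a TATA element on the opposite strand at 159 to 155 bases before the start.

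The arrays themselves set some limits on what follows. The Cftr probe lay close to background, at 8.12 to 8.30 in mutant and 8.20 to 8.28 in wild-type duodenum, and at 7.94 to 8.21 in mutant and 7.95 to 8.13 in wild-type colon. Where it lies with respect to the floxed exons is not known here, so it does not check the genotype. Mean levels of tissue markers went with the tissue labels. Enterocyte markers averaged 12.86 to 13.20 on duodenal and 7.86 to 8.56 on colon arrays. Colonocyte markers averaged 9.93 to 10.07 on duodenal and 11.93 to 12.27 on colon arrays. Of the colonocyte markers, Krt20 was higher in duodenum (0.57 in mutant and 0.70 in wild-type mice) and Ceacam20 did not pass. Smooth muscle markers, found in the gut wall, averaged 10.48 to 10.66 on duodenal and 8.13 to 8.31 on colon arrays. Colon mutant 2 stood apart from the other colon arrays, with Paneth markers (5 of 6 measured) at 11.54 against at most 9.34 on any other colon array. Lyz1, Defa3 and Defa20 carried that mean. Mmp7 (7.72) and Ang4 (11.86, against 10.59 to 13.74 on the other colon arrays) were not raised. Duodenum mutants 1 and 2 and wild type 2 carried pancreatic acinar transcripts, at 9.45 to 11.15 against at most 7.75 on the other 3 duodenal arrays. Colon mutant 1 and colon wild type 1 were the closest pair of all, with an SD of their differences of 0.08, and duodenum wild types 1 and 3 were the closest pair within a group, at 0.10.

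**Figure D1:**
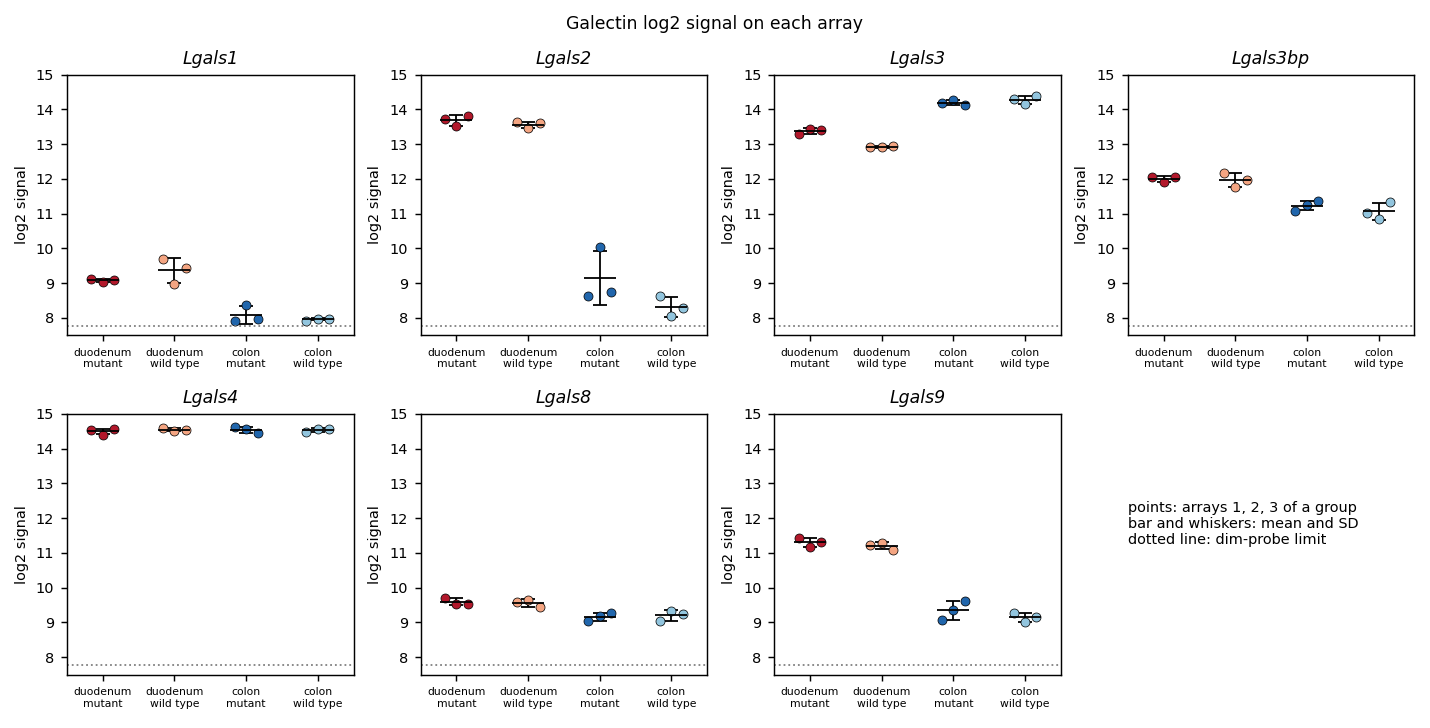
Deposited log2 signal (vertical axis) of each gene, one panel a gene, in the 4 groups (horizontal axis, duodenum mutant, duodenum wild type, colon mutant, colon wild type). Points are arrays, bars and whiskers are the mean and SD, and the dotted line is the dim-probe limit of 7.78. Lgals2 separates the tissues most, the Lgals3 points of mutant and wild-type duodenum do not meet, and colon mutant 2 lies highest among the colon arrays for Lgals1 and Lgals2.

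In the duodenum, loss of epithelial Cftr went with a higher level of Lgals3, and no other gene of the set passed the test. The question here was which genes differ between mutant and wild-type duodenum. Of the 7 genes, 1 was higher, 0 were lower and 6 did not pass limma's test at an adjusted p of 0.05, against 0.702% of all features called in either direction, 0.177% called higher and 0.525% called lower. The median difference was 0.05 over the 7 genes and 0.00 over all features (log2, mutant minus wild type). The 1 call was the value known when the family was picked and is given as a description.

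Lgals3 encodes galectin-3, the chimeric galectin of surface epithelium and macrophages. Its log2 values were 13.28, 13.43 and 13.41 in mutant duodenum, against 12.91, 12.90 and 12.94 in wild-type duodenum. Each mutant array lay above each wild-type array, and the wild-type arrays had an SD of 0.02. The difference was 0.46 ± 0.06 (SE, n = 3 each), or 1.37-fold, with limma's adjusted p = 0.0142 and a 95% interval of 0.32 to 0.59. Over 22 alternative fits it ran between 0.43 and 0.50, with adjusted p between 0.0043 and 0.0902. The call was lost, at nearly the same size, without duodenum wild type 1 (adjusted p = 0.0674), without wild type 3 (0.0615), with the duodenal arrays fitted alone (0.0902) and without the 3 arrays that carry pancreatic transcripts (0.0503, which sets mutant 3 alone, with a spread borrowed from other arrays, against wild types 1 and 3).

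Of all the gene lists read on the same arrays, 4 had means that lay apart between the genotypes in duodenum. Of these, 3 were higher and 1 was lower in mutant duodenum, and the means of the other lists overlapped. Groups of 3 arrays can lie apart without a genotype difference, and how many lists would do so was not worked out. All 7 goblet cell markers were measured, and their mean was 11.91 to 12.02 in mutant and 11.75 to 11.82 in wild-type duodenum. The immediate early genes, of which 9 of 11 were measured (not Ier2 and Nr4a1), averaged 9.06 to 9.29 in mutant and 8.86 to 8.90 in wild-type duodenum. The 24 measured genes that build galectin ligands averaged 9.46 to 9.63 in mutant and 9.40 to 9.43 in wild-type duodenum. In that list B3galt5, described below, had the largest difference, at 1.40, while the median difference was 0.03. The list's mean therefore does not stand for its other genes. Stem cell markers (4 of 4 measured) were on the lower side, at 8.51 to 8.65 in mutant and 8.69 to 8.73 in wild-type duodenum, and 3 of these 4 markers lay near the dim-probe limit, with Olfm4 at 10.52 to 11.05 in mutant and 11.10 to 11.29 in wild-type duodenum. No goblet, immediate early or stem cell gene passed the test by itself, where only 0.702% of all features passed in duodenum. The part of these lists in the Lgals3 difference was not tested. Macrophage markers, with 8 of 9 measured (not Cd68), averaged 8.66 to 8.83 in mutant and 8.71 to 8.85 in wild-type duodenum and overlapped between the genotypes.

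**Figure D2:**
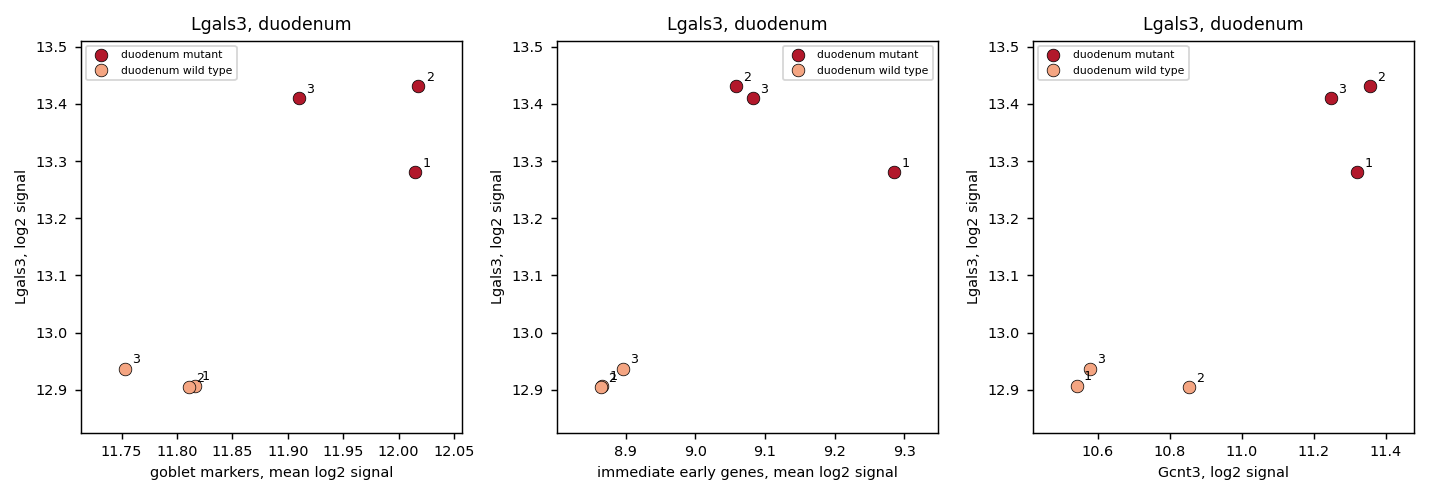
Lgals3 log2 signal (vertical axes) on the 6 duodenal arrays against the mean of the goblet markers, the mean of the immediate early genes and Gcnt3 (horizontal axes, log2 signal). Points are arrays with their number, dark for mutant and light for wild type. The mutant arrays lie above and to the right of the wild-type arrays in each panel, at 13.28 to 13.43 against 12.90 to 12.94 for Lgals3.

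The other 6 genes had smaller or less even differences in the duodenum. Lgals1, galectin-1 of stromal and endothelial cells, read 9.13, 9.04 and 9.08 in mutant and 9.68, 8.98 and 9.44 in wild-type duodenum. The mutant arrays lay inside the wild-type range, and the difference of -0.28 ± 0.16 had a 95% interval of -0.65 to 0.08. It was -0.13 without duodenum wild type 1 and -0.48 without wild type 2. Endothelial markers (7 of 7 measured) averaged 8.17 to 8.20 in mutant and 8.17 to 8.31 in wild-type duodenum, highest on wild types 1 and 3, as Lgals1 was. Among them Kdr, near the dim-probe limit, went the other way, at 7.79 to 7.80 in mutant and 7.73 to 7.75 in wild-type duodenum. Erythrocyte markers (2 of 5 measured, with Alas2 near the dim-probe limit) averaged 8.86 to 9.25 in mutant and 8.78 to 9.80 in wild-type duodenum. They too were highest on wild types 1 and 3. Of all the lists read, the endothelial and erythrocyte lists correlated most closely with Lgals1 over the duodenal arrays (r = 0.972 and 0.943). The part of either list in the Lgals1 level was not tested. Lgals2 read 13.72, 13.51 and 13.81 in mutant and 13.62, 13.46 and 13.60 in wild-type duodenum, with an interval of -0.56 to 0.80. For Lgals9 the values were 11.43, 11.17 and 11.33 in mutant and 11.23, 11.28 and 11.09 in wild-type duodenum, overlapping, with an interval of -0.17 to 0.39. The intervals of Lgals3bp (-0.24 to 0.33), Lgals4 (-0.18 to 0.07) and Lgals8 (-0.17 to 0.23) all held 0. Their adjusted p-values in limma lay between 0.777 and 0.998 for these 6 genes, which leaves differences up to the ends of those intervals possible.

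**Figure D3:**
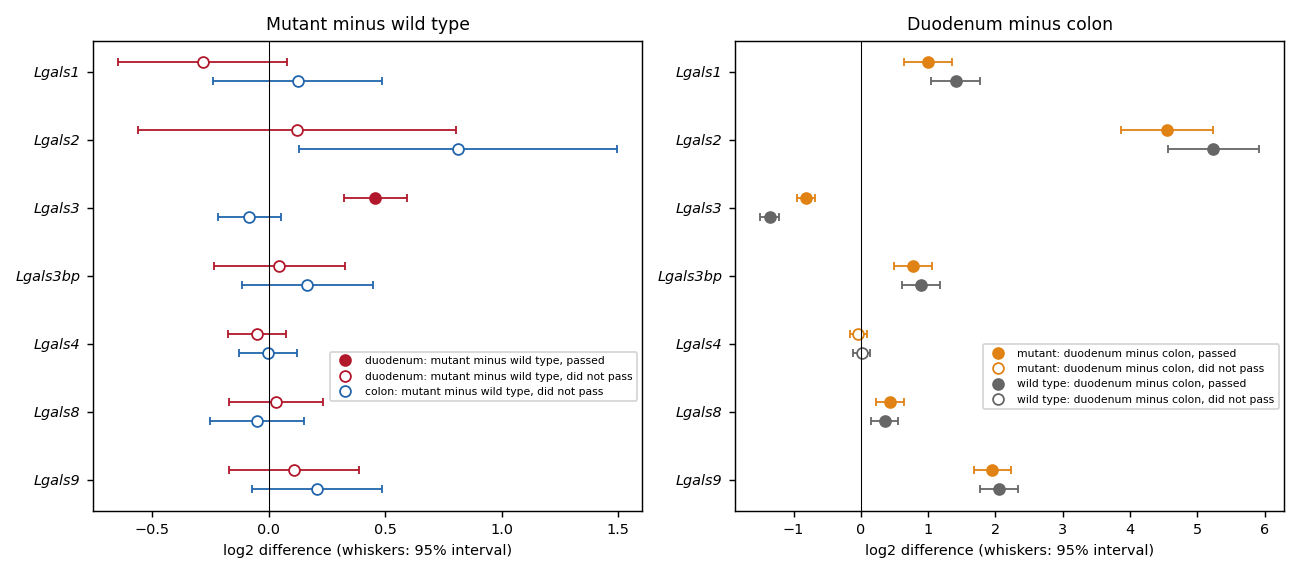
Log2 differences with 95% intervals for each gene (rows), mutant minus wild type on the left (duodenum above, colon below in each row) and duodenum minus colon on the right (mutant above wild type). Filled points passed an adjusted p of 0.05. Only Lgals3 in duodenum is filled on the left, and Lgals4 is the one gene unfilled on the right.

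In the colon, none of the 7 genes passed between mutant and wild type, and no feature did (0% of 15817, with 805 under an unadjusted p of 0.05 in limma). Lgals3 read 14.18, 14.27 and 14.11 in mutant and 14.29, 14.16 and 14.37 in wild-type colon. The groups overlapped, and the difference was -0.08 ± 0.06, with a 95% interval of -0.22 to 0.05.

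Lgals2, a prototype galectin of the small-intestinal epithelium, had the largest difference between the colon groups among the 7. It read 8.63, 10.03 and 8.75 in mutant and 8.62, 8.05 and 8.29 in wild-type colon. Mutant 2 lay more than a log2 unit above every other colon array, while mutant 1 and wild type 1 differed only in the third decimal. The difference was 0.81 ± 0.31 (limma, unadjusted p = 0.0241, adjusted p = 0.94), and 0.37 ± 0.15 without colon mutant 2 (adjusted p = 0.867). The same array was high for some small-intestinal and Paneth genes, at 10.12 for Apoa1, 11.54 for Lyz1 and 13.10 for Defa3. Other genes of these lists did not follow as a class. Of the enterocyte markers, Anpep and Apoa4 were also highest there and Mttp barely so, while Sis, Lct and Alpi were not. Of the Paneth markers, Mmp7 and Ang4 were not raised, as described above. The part of the raised genes in the Lgals2 level of colon mutant 2 was not tested. Lgals1 was also highest there, at 7.90, 8.38 and 7.97 in mutant and 7.92, 7.98 and 7.98 in wild-type colon, and its difference of 0.12 became -0.02 without colon mutant 2. Erythrocyte markers averaged 10.66 on colon mutant 2, against at most 9.75 on any other colon array, and their part was not tested.

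The remaining colon differences were small. Lgals9 read 9.08, 9.36 and 9.62 in mutant and 9.27, 9.02 and 9.15 in wild-type colon, a difference of 0.21 ± 0.13 that ran from 0.08 without mutant 3 to 0.35 without mutant 1. Lgals3bp differed by 0.17 ± 0.13, from 0.06 without wild type 2 to 0.30 without wild type 3, Lgals8 by -0.05 ± 0.09 and Lgals4 by -0.00 ± 0.06. Their groups overlapped.

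Whether the genotype difference was itself unlike in the tissues was tested by subtracting the colon difference from the duodenal one. For Lgals3 this gave 0.54 ± 0.09 (95% interval 0.35 to 0.73, unadjusted p = 9.09e-05), which did not pass in limma at an adjusted p of 0.213. It passed without duodenum mutant 1 (0.59, adjusted p = 0.0475). Lgals2 gave -0.69 ± 0.43 and Lgals1 -0.41 ± 0.23, neither past the threshold. Without colon mutant 2 these were -0.25 for Lgals2 and -0.26 for Lgals1, and without duodenum wild type 1 Lgals1 gave -0.25. No feature of the 15817 passed this test (0%, with 938 under an unadjusted p of 0.05).

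Between the tissues, 5 of the 7 genes were higher and 1 was lower in duodenum than in colon, in both genotypes. Lgals1, Lgals2, Lgals3bp, Lgals8 and Lgals9 were higher, Lgals3 was lower and Lgals4, on its brightest probe, did not pass. A call between these tissues is common: of all features, 39.8% were called in mutant mice (17.5% higher, 22.3% lower in duodenum) and 41.6% in wild-type mice (18% higher, 23.6% lower). The median difference over the 7 genes was 0.78 in mutant and 0.90 in wild-type mice, against -0.02 over all features in each. Region of gut and sampled cells, wall without villi against epithelium, cannot be told apart here.

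Among the prototype galectins, Lgals2 had the widest gap. It stood at 13.46 to 13.81 on the 6 duodenal and 8.05 to 10.03 on the 6 colon arrays. The duodenum exceeded the colon by 4.55 ± 0.31 (23.4-fold, adjusted p = 9.87e-07) in mutant and by 5.24 ± 0.31 (37.8-fold, adjusted p = 3.03e-07) in wild-type mice. Without colon mutant 2 the mutant difference was 4.995. On a background-subtracted scale, which undoes some of the compression of dim probes, the differences were 5.31 in mutant and 6.84 in wild-type mice, so the folds above are the smaller reading. Lgals1 stood at 8.98 to 9.68 on duodenal and 7.90 to 8.38 on colon arrays, which is near the dim-probe limit of 7.78. Its duodenal excess was 0.999 ± 0.16 in mutant and 1.41 ± 0.16 in wild-type mice (adjusted p = 0.00063 and 4.96e-05). On the background-subtracted scale these became 2.60 and 3.46. Stromal markers differed between the same arrays. Fibroblast markers (7 of 7 measured) averaged 8.61 to 8.73 in duodenum and 7.81 to 8.19 in colon. Endothelial markers averaged 8.17 to 8.31 in duodenum and 7.79 to 7.81 in colon. Among the latter, Kdr was lower in duodenum (-0.02 in mutant and -0.10 in wild-type mice). The part of these markers in the Lgals1 difference was not tested.

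Lgals3 ran the other way. It was lower in duodenum by 0.82 ± 0.06 in mutant mice (1.76-fold, adjusted p = 2.2e-06) and by 1.36 ± 0.06 in wild-type mice (2.56-fold, adjusted p = 4.14e-08). Its group means were 13.37 ± 0.08 in mutant and 12.92 ± 0.02 in wild-type duodenum, and 14.19 ± 0.08 in mutant and 14.27 ± 0.11 in wild-type colon (SD, n = 3 each). The colon groups did not differ beyond their spread, mutant duodenum came next and wild-type duodenum was lowest. For the 5 genes higher in duodenum, both duodenal group means lay above both colon means, and neighbours in that order within a tissue overlapped, except for Lgals2 in colon, where mutant arrays lay above wild-type arrays by the margin described for it.

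Of the tandem-repeat galectins, Lgals9 differed most between tissues, and the brightest Lgals4 probe did not pass. Lgals9, which binds glycans on immune cells, stood at 11.09 to 11.43 in duodenum and 9.02 to 9.62 in colon. Its duodenal excess was 1.95 ± 0.13 in mutant (3.87-fold, adjusted p = 6.66e-07) and 2.05 ± 0.13 in wild-type mice (4.15-fold, adjusted p = 3.97e-07). Lgals8, a sensor of damaged vesicles, was higher by 0.43 ± 0.09 in mutant and 0.35 ± 0.09 in wild-type mice (adjusted p = 0.00322 and 0.00994), with 9.44 to 9.71 in duodenum and 9.03 to 9.34 in colon. The mutant call for Lgals8 was lost without the 3 arrays that carry pancreatic transcripts (0.38, adjusted p = 0.0603), a fit with 1 mutant duodenal array, whose spread is taken from the other groups. Lgals4, an abundant galectin of gut epithelium, stood at 14.40 to 14.60 in duodenum and 14.44 to 14.61 in colon. These are near the highest value on the arrays, 14.904, and dimmer Lgals4 probes are given with the other probes. On the brightest probe the tissue difference was -0.04 ± 0.06 in mutant and 0.01 ± 0.06 in wild-type mice.

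Lgals3bp, the galectin-3 ligand, read 12.05, 11.91 and 12.06 in mutant and 12.16, 11.77 and 11.95 in wild-type duodenum. In colon it read 11.09, 11.25 and 11.35 in mutant and 11.01, 10.86 and 11.32 in wild-type mice. Every duodenal array lay above every colon array. The excess was 0.78 ± 0.13 in mutant (1.71-fold, adjusted p = 0.000611) and 0.90 ± 0.13 in wild-type mice (1.86-fold, adjusted p = 0.000205). Interferon response genes, of which 13 of 17 were measured, averaged 9.23 to 9.46 in duodenum and 8.52 to 8.72 in colon. In each genotype 9 were higher and 0 lower in duodenum (17.5% of all features were higher in mutant and 18% in wild-type mice). None was called between genotypes, against 0.702% of all features in duodenum and 0% in colon. The part of these genes in the Lgals3bp level was not tested. Within the duodenum, wild type 2 was lowest in both Lgals3bp and the interferon genes.

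**Figure D4:**
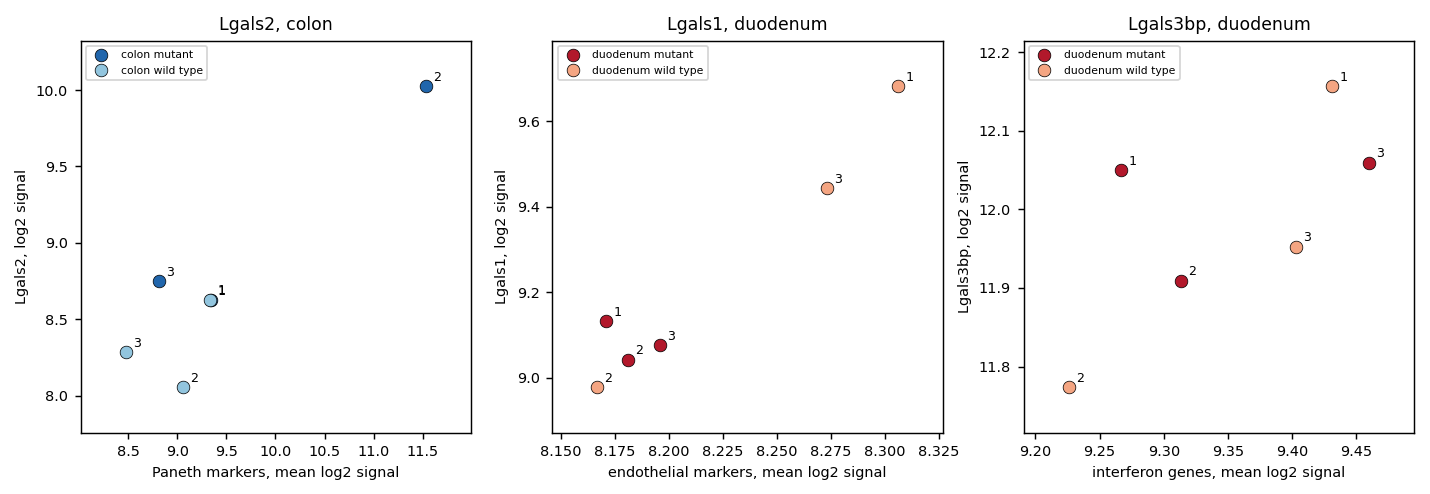
Log2 signals of Lgals2 on the colon arrays, Lgals1 on the duodenal arrays and Lgals3bp on the duodenal arrays (vertical axes), against the mean log2 signal of Paneth markers, endothelial markers and interferon genes (horizontal axes). Points are arrays with their number, dark for mutant and light for wild type. Colon mutant 2 lies far from the other colon arrays in both Lgals2 and Paneth markers, colon mutant 1 and wild type 1 coincide, and duodenum wild types 1 and 3 are highest in both Lgals1 and endothelial markers.

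Probes of the same gene gave the same direction between tissues except for Lgals4. The 3 Lgals9 probes differed by 2.05, 1.56 and 1.32 between wild-type duodenum and colon, and by 1.95, 1.65 and 1.35 in mutant mice. The second Lgals8 probe gave 0.27 in mutant and 0.44 in wild-type mice, and in the duodenal genotype comparison it had the opposite sign to the first, -0.11 against 0.03, neither past the threshold. Of the Lgals4 probes, the brightest gave 0.01 and another gave -0.19 ± 0.07 in wild-type mice (adjusted p = 0.043 with every probe fitted as its own feature). The remaining Lgals4 probe, at 10.84 to 11.87 on all arrays, gave -0.38 ± 0.22 and was designed to a transcript record that the RefSeq table used does not hold. Lgals6, a near-identical copy of Lgals4 that some mouse strains carry, was given by the annotation to no probe. Which of these copies the probes read was not tested. Lgals1, Lgals2, Lgals3 and Lgals3bp had 1 probe each, so no second probe checks the Lgals3 values.

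**Figure D5:**
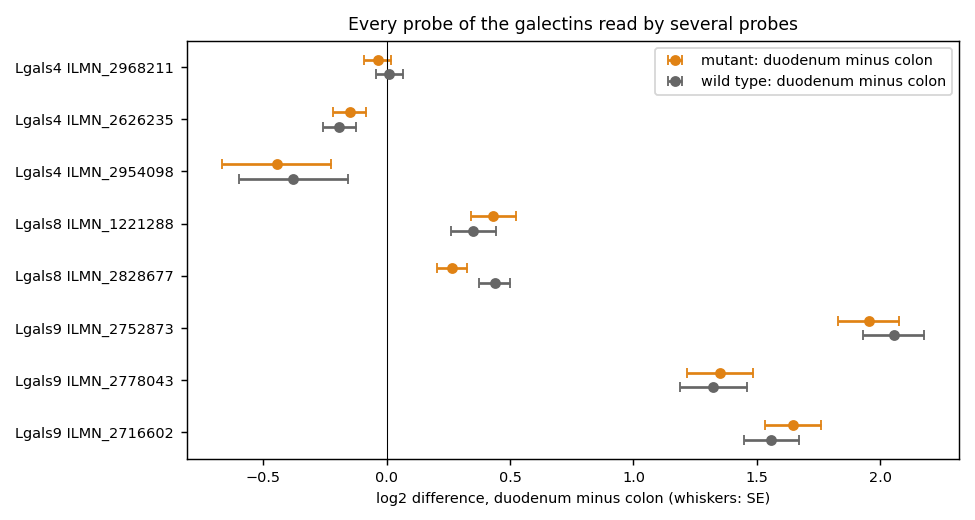
Log2 difference, duodenum minus colon (horizontal axis), for the 8 probes of the 3 genes read by several probes (rows), with mutant above wild type in each row and whiskers for the SE. The 3 Lgals9 probes and both Lgals8 probes lie right of 0, while the Lgals4 probes lie at or left of 0.

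Other members of the galectin family were at or near background. Lgals12 and Grifin were above the dim-probe limit on 0 arrays. The 3 Lgals7 probes lay at the limit, between 7.69 and 7.93. Of the probes of the galectin-like Lgalsl, 1 lay between 8.09 and 8.41 and the other between 7.67 and 7.74, below the limit on every array. Neither Lgals7 nor Lgalsl passed in any of the 5 comparisons.

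Among genes that build galectin ligands, 2 of 24 measured were higher in mutant duodenum and 0 were lower, against 0.702% of all features, and none passed in colon. B3galt5, a β-1,3-galactosyltransferase, read 9.96, 8.79 and 9.17 in mutant duodenum, against 7.89, 7.90 and 7.92 in wild-type duodenum, where it lay just above the dim-probe limit. Its difference was 1.40 ± 0.23 (limma, adjusted p = 0.0285). The call was lost in 8 of 12 fits that each left out 1 array, among them all 3 wild-type arrays of either tissue (differences from 1.40 to 1.47, adjusted p from 0.0502 to 0.111), and with the duodenal arrays fitted alone (0.266). Gcnt3, which makes branched core structures of mucin O-glycans, read 11.32, 11.36 and 11.25 in mutant and 10.54, 10.85 and 10.58 in wild-type duodenum. It differed by 0.65 ± 0.12 (limma, adjusted p = 0.0462). That call was lost in 9 of the 12 fits, among them those without any 1 duodenal array other than wild type 2 (differences from 0.59 to 0.68, adjusted p from 0.057 to 0.194).

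None of the 24 measured glycoproteins that galectins bind passed between genotypes in either tissue. Of all features, only 0.702% passed in duodenum and 0% in colon. The smallest p-values in duodenum belonged to Muc2, the goblet cell mucin, at 0.22 (adjusted p = 0.108), Lct, brush border lactase, at -0.42 (0.117) and Nrp1, a co-receptor of VEGF, at -0.22 (0.357). None of the 10 partners in vesicle repair and autophagy passed either, with Chmp4b, an ESCRT-III subunit, at 0.16 (adjusted p = 0.348), Pdcd6ip at 0.17 (0.369) and the autophagy receptor Sqstm1 at -0.11 (0.992). Between the tissues, 11 of the 24 bound glycoproteins were higher in duodenum and 4 lower in mutant mice, and 13 were higher and 4 lower in wild-type mice. Of the 24 ligand-building genes, 4 were higher and 13 lower in each genotype. Over all features the shares were 17.5% higher and 22.3% lower in mutant mice, and 18% higher and 23.6% lower in wild-type mice.

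Likeness was measured as Pearson's r over the 12 arrays after each tissue's mean was subtracted, and is a description of arrays that share their normalization and a few outlying libraries. The genes most like Lgals3 were Errfi1 (r = 0.92), Gcnt3 (0.91) and Cog3 (0.91), with 0.98, 0.93 and 0.98 within the 6 duodenal arrays. Within the 6 colon arrays r was 0.53, 0.85 and 0.90. The genotype difference was left in, so genes picked as like Lgals3 tend to share its duodenal difference. Their own duodenal differences are therefore no separate evidence. Errfi1, a feedback inhibitor of EGF receptors, was itself higher in mutant duodenum by 0.63 ± 0.08 (adjusted p = 0.0116), a call lost at about the same size without wild type 1 (0.62, adjusted p = 0.0618), without wild type 3 (0.64, 0.0577) and without the 3 arrays with pancreatic transcripts (0.69, 0.0588). The genes most like Lgals2 were the Paneth genes Defa3 (0.93), Lyz1 (0.92) and Defa20 (0.92), and these values rested on colon mutant 2, without which they were 0.68, 0.64 and 0.63. Those most like Lgals1 were Ccdc80 (0.94), Tmem100 (0.93) and the haemoglobin gene Hbb-bt (0.92). Those most like the other 4 were Tmc3, Erbin and Atp11b for Lgals3bp (0.92, 0.91 and 0.88), Gdap1, Thumpd3 and Chst11 for Lgals4 (0.90, 0.89 and 0.87), Aym1, Gadd45b and Zfp276 for Lgals8 (0.92, 0.90 and 0.90), and Olfr924, Cpne2 and Tnp2 for Lgals9 (0.92, 0.89 and 0.89). With the tissue difference left in, the arrays form a cloud for each tissue, and likeness is given only for Lgals2, Lgals3bp and Lgals9. Lgals2 was then most like the enterocyte genes Apoa1 (0.997) and Anpep (0.994), followed by Tgm2. Lgals3bp was most like the interferon-induced Trafd1 (0.983), then Tmem273, and then the interferon-induced Isg15 (0.974). Lgals9 was most like Pls1 (0.995), an actin bundler of the brush border, followed by Map7d1 and Plin3. For the first gene of each, Apoa1, Trafd1 and Pls1, r within the 6 duodenal arrays was -0.357, 0.726 and 0.278. Within the 6 colon arrays it was 0.939, 0.944 and 0.943.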

How the data were processed

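The authors deposited log2 values, taken from their nearly identical distributions on the 12 arrays to be quantile normalized. The submitters' processing notes name limma (no version), and how background was handled is not stated. A second table of 24 columns of signals and detection p-values was not used, because its column names match no sample. The plan had allowed for such signals.

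The dim-probe limit was 3 SD above the mode of all values (7.70), with the SD taken from values below the mode, and gave 7.78. Probes above it on at least 3 arrays were kept, 22613 of 45281, and the probe with the highest mean stood for a gene. Of all probes, 34885 had 1 gene symbol, 18 several and 10378 none. Means per group were fitted with limma 3.58.1 in R 4.3.3 over all 12 arrays, and two-sided p-values were adjusted by Benjamini-Hochberg over 15817 features per comparison. Fits were tested on simulated data. The number of arrays limits the precision.

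The 7 genes and all lists were chosen with earlier results of these data known. Named are the 7 genes, other galectins, per ligand or partner list the genes that passed in a genotype comparison or else the 3 with the smallest p, and the 3 genes most like each member. B-cell and T-cell markers, also listed, had no call between genotypes (0.702% of all features were called in duodenum and 0% in colon). The means of these markers overlapped in duodenum. Alternatives changed the dim-probe limit, the probe rule, the variance prior, array weights, the arrays fitted, a replicate block and the scale.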

Additional observations from a re-analysis of the deposited data

How the results depend on the processing

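Of 784 differences of single genes under alternative settings, 755 kept their direction and side of the threshold, 5 lost a call, 1 gained one and 23 changed sign, none of the last past the threshold in either fit. The number of the 7 genes called in duodenum was 0 with the duodenal arrays fitted alone and 0 without the 3 arrays with pancreatic transcripts, and 0 to 1 over fits that each left out 1 array. The number called for the difference of genotype contrasts was 0 to 1 over those fits. The cause was not tested.

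Sign changes were all of small values. With the mean of a gene's probes, duodenal genotype differences became 0.037 for Lgals4 and -0.042 for Lgals8, colon ones 0.061 and 0.0041, the contrast of contrasts -0.046 for Lgals8 and 0.0046 for Lgals9, and the wild-type tissue difference of Lgals4 -0.186. Array weights gave 0.0089 for Lgals4 in colon, and leaving out the 3 arrays gave 0.020 for Lgals4 between mutant tissues. Leaving out 1 array at a time, genotype differences ran from -0.0485 to 0.143 for Lgals3bp and -0.0275 to 0.0799 for Lgals8 in duodenum, from -0.0242 to 0.214 for Lgals1, -0.0419 to 0.0449 for Lgals4 and -0.135 to 0.0184 for Lgals8 in colon. The contrast of contrasts of Lgals9 ran from -0.238 to 0.0316, and the tissue difference of Lgals4 from -0.0852 to 0.0095 in mutant and -0.0223 to 0.0332 in wild-type mice.

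Deviations of same-numbered mutant and wild-type arrays, which come from different mice, correlated at 0.046, 0.373 and 0.325 in duodenum. For different numbers these ran from -0.331 to 0.213. In colon the same-numbered values were 0.137, -0.208 and -0.041. Between duodenum and colon, which could share a mouse, they were -0.004, -0.042 and 0.162 in mutant mice. In wild-type mice they were -0.007, -0.011 and 0.059. With 3 arrays a group, such values cannot decide whether the numbers pair the samples. With a replicate block, the Lgals3 difference in duodenum was 0.46 (adjusted p = 0.0364), and the counts of called genes were 1 in duodenum, 0 in colon and 6 between tissues in each genotype. With that block B3galt5 (1.40, adjusted p = 0.0553) and Gcnt3 (0.65, adjusted p = 0.0897) no longer passed in duodenum.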
